A study of Homo sapiens with 2 samples.

Results

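The genes described here are 50 named members of the transforming growth factor beta (TGF-beta), activin and bone morphogenetic protein (BMP) pathways, chosen by symbol: ligands, latent binding proteins, receptors, SMADs, their inhibitors and the ID response genes. The choice was made with earlier results of these data known. Of the 50 members, 49 had a probe set that names them alone, out of 18417 genes so named on the array, and BMPR1A was not analysed here. RNA that came down with an antibody against Argonaute2 (Ago2), the protein in which microRNAs bind their target mRNAs, was measured on 1 microarray for each of 2 groups of A549 cells. A549 is an established human lung adenocarcinoma line. The first group overexpressed miR-130b and the second was transfected with an empty vector, and the labels give no dose, time or number of cultures. The question put by the design is which transcripts are found with Ago2 in larger amounts once miR-130b is overexpressed.

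Ligands of this family are secreted dimers that bring type I and type II receptor kinases together on the cell surface. TGF-beta is stored in the matrix with a latent TGF-beta binding protein until it is released. Activated type I receptors phosphorylate SMAD2 and SMAD3 in the TGF-beta and activin branch, and SMAD1, SMAD5 and SMAD9 in the BMP branch, and these enter the nucleus with SMAD4. The pathway induces its own inhibitors, among them SMAD6, SMAD7, BAMBI and SKIL, and BMP signals induce the ID genes. In lung epithelial cells TGF-beta is known for slowing growth and for driving the change to a mesenchymal form.

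The mature sequences of the overexpressed microRNA and of relatives that carry the same seed are shown because they define which mRNAs it can pair with. They are RefSeq sequences on GRCh38.p14, with the seed (bases 2 to 8) in capitals, and the 3p arms share the seed AGUGCAA while the 5p arm of miR-130b does not.
hsa-miR-130b-3p: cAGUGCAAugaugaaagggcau
hsa-miR-301b-3p: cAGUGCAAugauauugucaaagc
hsa-miR-301a-3p: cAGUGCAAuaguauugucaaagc
hsa-miR-454-3p: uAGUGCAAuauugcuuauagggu
hsa-miR-130b-5p: aCUCUUUCccuguugcacuac
The miR-130b-3p arm lies at chr22:21653354-21653375 on the plus strand. The probe set of its gene, MIR130B, read 12.64 in the miR-130b array, against 6.66 in the empty-vector array, so the arrays differed as labelled. AGO2 mRNA, which encodes the precipitated protein, was at 11.66 with miR-130b and at 11.41 with the empty vector.

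All values are log2 expression values, and each difference is the value with miR-130b minus that with the empty vector. With 1 array per group there is no replicate error, no test and no p-value, so "higher" and "lower" describe these 2 arrays only. As a guide to size, the difference varied between different probe sets of 1 gene with a pooled SD of 0.16 (356 genes), a spread that covers neither separate cultures nor separate precipitations. No array of input RNA or of a control precipitate was analysed here, so more of an mRNA in the cell and more of it held by Ago2 cannot be told apart, nor can fewer cells with a transcript and less of it per cell. A filter kept the 9209 genes with a mean over the 2 arrays of 8.64 or more, which is the median over named genes. It kept 36 of the 49 members, and the other 13 are described with their values because probes near background can understate a difference. Nearest to that limit were SMAD7, kept with a mean of 8.70, and BMP6, left out with a mean of 8.62. Olfactory receptor genes, which this cell type is not known to express, had a median of 5.86 with miR-130b and 5.77 with the empty vector. BMP7, INHBA, SMAD9, NOG and ID4 lay under the 95th percentile of those genes on both arrays (7.17 with miR-130b, 7.08 with the empty vector). Of 12 measured A549 and lung epithelial markers 11 passed the filter, with the keratin KRT8 at 13.48 with miR-130b and 13.38 with the empty vector. The other marker, EPCAM, was near background, at 6.80 with miR-130b and 7.00 with the empty vector. Of the 12 epithelial markers 9 were higher and 3 lower with miR-130b, with a median difference of 0.096. E-cadherin, CDH1, had the largest difference of them and was lower, at 11.49 with miR-130b and 12.61 with the empty vector. ALDH3A1 was higher by 0.68. Fibroblast markers were higher with miR-130b in 10 of 10, with a median difference of 0.35. Of all measured genes 58.6% were higher, with a median of 0.053. The mean level of the fibroblast markers was 7.05 with miR-130b (from 4.55 to 9.05) and 6.59 with the empty vector (from 4.46 to 8.74). On both arrays 5 of the 10 (COL1A1, COL1A2, COL3A1, LUM and THY1) were above the 95th percentile of olfactory receptor genes, and COL1A1 passed the filter. Decorin, DCN, was at 4.55 with miR-130b and 4.46 with the empty vector, and FAP, the fibroblast marker that differed most, was at 6.97 with miR-130b and 5.26 with the empty vector. All 6 endothelial markers were higher, with a median difference of 0.21. On both arrays 2 of the 6 were above the 95th percentile of olfactory receptor genes. KDR differed by 0.71 and was under that percentile with the empty vector, at 6.68. Of 7 leukocyte markers 5 were higher and 2 lower, with a median of 0.043, and the largest differences were those of CD68 at -1.18, ITGAM at -0.66 and CD14 at 0.63. The part of these markers in the members' differences was not tested.

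The pathway's mRNAs were mostly higher in the miR-130b precipitate. Of the 49 measured members 36 were higher and 13 lower, and their median difference was 0.20. Of all 18417 measured genes 58.6% were higher and 40.6% lower, and their median was 0.053. Of the 36 kept members 26 were higher and 10 lower, with a median of 0.26. Of the 9209 kept genes 51.5% were higher and 48.4% lower, with a median of 0.010. At least 1.5-fold higher were 9 of the 36 kept members, against 5.04% of kept genes, and 1 was at least 1.5-fold lower, against 5.87%. At least 2-fold higher were the kept members BMP4 and ID1, against 1.32% of kept genes, and none was at least 2-fold lower, against 1.60%. Without the filter, 11 of 49 were at least 1.5-fold higher (3.65% of all measured genes) and 2 at least 1.5-fold lower (4.65%). BMP2 then joined BMP4 and ID1 at 2-fold higher, where 1.06% of all measured genes stood, and none was 2-fold lower, against 1.37%. The difference was smaller than 2 of the SDs between probe sets, 0.33, for 16 of the 36 kept members, against 70.4% of kept genes. It was that small for 25 of the 49 measured members, and the share of all measured genes was not computed. The members were chosen with earlier results of these data known, and the part of that choice in these counts was not tested.

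**Figure D1:**
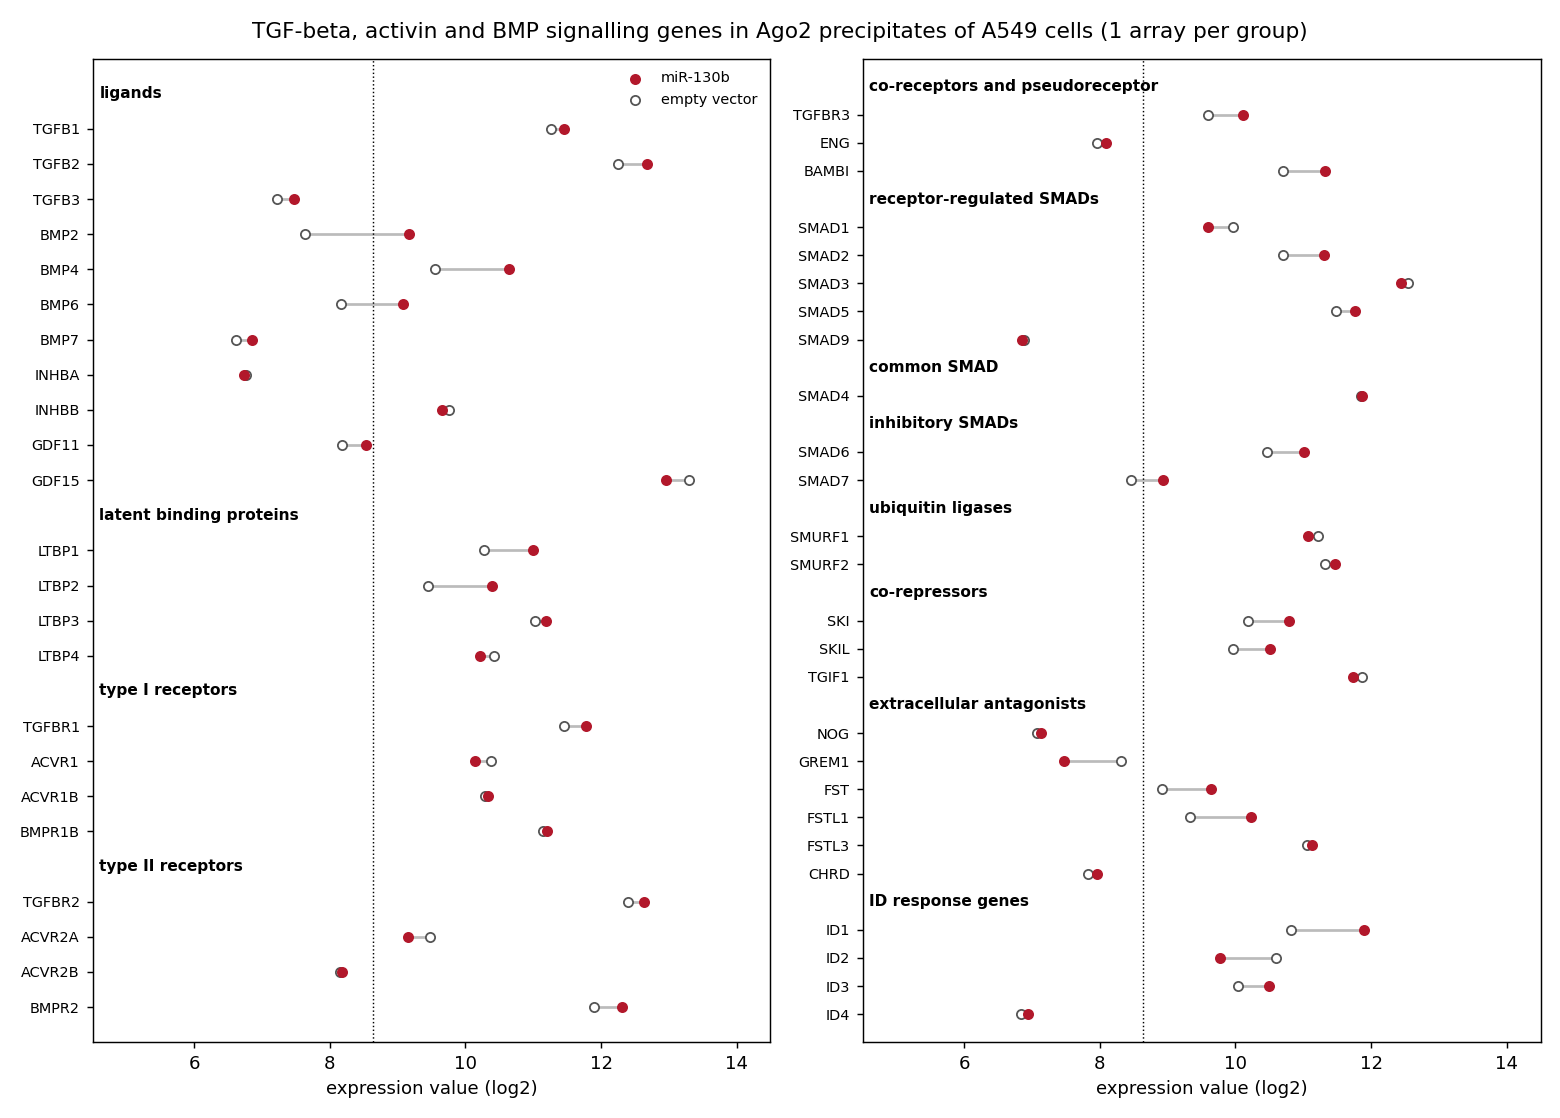
Expression value (log2, x axis) of the 49 measured members in the miR-130b array (filled red) and the empty-vector array (open grey), 1 array each, grouped by role, with the filter of 8.64 as a dotted line. BMP2, BMP4, ID1 and LTBP2 show wide gaps with miR-130b to the right, while ID2 and GREM1 show wide gaps with miR-130b to the left.

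Among the member ligands, 3 BMP genes stood highest in difference. BMP4, a BMP of lung development, was at 10.64 in the miR-130b array, against 9.55 in the empty-vector array, which is 2.14-fold higher and above 99.1% of kept genes. BMP2, a close relative of BMP4, was at 9.17 with miR-130b, against 7.63 with the empty vector, a difference of 1.53 on probes whose mean fell below the filter. BMP6 was at 9.08 with miR-130b, against 8.17 with the empty vector, a difference of 0.91 just below the same filter. These 3 genes were higher on the miR-130b array by 0.91 or more. The fourth BMP gene among the members, BMP7, was near background, at 6.85 with miR-130b and 6.62 with the empty vector. Further BMP genes are on the list of other pathway genes below and are not counted here.

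The TGF-beta ligands were higher by less. TGFB2 was at 12.68 with miR-130b and 12.25 with the empty vector, a difference of 0.43. TGFB1, the most widely expressed isoform in the body, was at 11.46 with miR-130b and 11.26 with the empty vector, a difference of 0.20. TGFB3, below the filter, was at 7.47 with miR-130b and 7.22 with the empty vector. All 3 isoforms thus lay on the same side of 0, and of the 3 only TGFB2 differed by more than 0.33. The activin subunit genes did not share this direction. INHBB, the activin beta B subunit, was at 9.65 with miR-130b and 9.76 with the empty vector, and INHBA, the beta A subunit, was near background at 6.74 with miR-130b and 6.76 with the empty vector. GDF11, an activin-like ligand, was at 8.53 with miR-130b and 8.18 with the empty vector, below the filter. GDF15, a stress-induced divergent member of the family, had the lowest difference of the ligands, with 12.95 in the miR-130b array and 13.29 in the empty-vector array. The 11 ligands had a median difference of 0.24, with 8 higher and 3 lower.

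The latent TGF-beta binding proteins were unequal. LTBP2, a matrix protein that unlike its relatives does not bind latent TGF-beta, was at 10.39 with miR-130b, against 9.46 with the empty vector, a difference of 0.94 that exceeded 98.3% of kept genes. LTBP1, which anchors latent TGF-beta in the matrix, was at 11.00 with miR-130b, against 10.27 with the empty vector, a difference of 0.73. LTBP3 was at 11.19 with miR-130b and 11.03 with the empty vector. LTBP4 was lower, at 10.22 with miR-130b and 10.42 with the empty vector. LTBP1 and LTBP2 were therefore each more than 1.5-fold higher, and LTBP3 and LTBP4 differed by 0.16 and -0.20, within 2 SDs between probe sets.

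None of the 8 measured receptor kinases reached 1.5-fold in either direction, which 3.65% of all measured genes did upward and 4.65% downward, so a count of 0 is near the general share. The 4 measured type I receptors had a median difference of 0.047 and the 4 type II receptors one of 0.13. TGFBR1, the type I receptor for TGF-beta, was at 11.77 with miR-130b and 11.45 with the empty vector. TGFBR2, its type II partner, was at 12.63 with miR-130b and 12.40 with the empty vector. The 2 chains of the TGF-beta receptor were thus higher by 0.32 and 0.23. Among BMP receptors, BMPR2 was at 12.31 with miR-130b and 11.90 with the empty vector, a difference of 0.41, the largest of the 8 receptor kinases measured. BMPR1B was at 11.20 with miR-130b and 11.15 with the empty vector, and ACVR1, a type I receptor for BMPs, was at 10.15 with miR-130b and 10.38 with the empty vector. The activin receptor ACVR2A was lower, at 9.15 with miR-130b and 9.48 with the empty vector. ACVR1B, the type I activin receptor, differed by 0.043 and ACVR2B, below the filter, by 0.037.

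Of the accessory receptors, BAMBI and TGFBR3 differed more than any of the 8 receptor kinases. BAMBI, a pseudoreceptor without a kinase domain that blunts signalling and is induced by the pathway, was at 11.32 with miR-130b, against 10.70 with the empty vector, a difference of 0.62. TGFBR3, the co-receptor betaglycan that presents TGF-beta to its receptors, was at 10.11 with miR-130b, against 9.60 with the empty vector, a difference of 0.51. ENG, the endothelial co-receptor endoglin, was below the filter at 8.10 with miR-130b and 7.95 with the empty vector.

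The receptor-regulated SMADs differed among themselves, with no common direction within a branch. SMAD2 was at 11.31 with miR-130b, against 10.70 with the empty vector, a difference of 0.61. Its 2 probe sets were unequal, at 0.85 and 0.37, so the size of this difference depends on the probe set, and the brighter one alone did not reach 1.5-fold. SMAD3, which works beside SMAD2, was at 12.44 with miR-130b and 12.54 with the empty vector. On the BMP side SMAD5 was higher, at 11.77 with miR-130b and 11.48 with the empty vector. SMAD1 was lower, at 9.59 with miR-130b and 9.97 with the empty vector, and SMAD9 was near background with a difference of -0.021. SMAD4, the partner that all of them share, was at 11.87 with miR-130b and 11.85 with the empty vector. Its difference of 0.022 lay at the 51.9th percentile of kept genes.

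Both inhibitory SMADs and 2 of the 3 co-repressors were higher with miR-130b. SMAD6, which restrains BMP signals, was at 11.00 with miR-130b, against 10.47 with the empty vector, a difference of 0.54. SMAD7, which blocks receptors of both branches, was at 8.93 with miR-130b, against 8.46 with the empty vector, a difference of 0.47. Its mean was just above the filter, but its empty-vector value was below it. Its place among kept genes therefore rests on its value in the miR-130b array. Both inhibitory SMADs thus lay between the 92.3rd and the 94.0th percentile of kept genes, short of 1.5-fold. The co-repressor SKI, which holds SMAD complexes inactive on DNA, was at 10.79 with miR-130b, against 10.19 with the empty vector, a difference of 0.60. SKIL, its relative SnoN, was at 10.51 with miR-130b, against 9.97 with the empty vector, a difference of 0.55. TGIF1, a homeodomain co-repressor of SMAD2 complexes, was lower by 0.13, at 11.73 with miR-130b and 11.86 with the empty vector, and each of its 5 probe sets lay between -0.17 and -0.098. The ubiquitin ligases that mark SMADs and receptors for destruction were split, with SMURF2 at 0.16 and SMURF1 at -0.16.

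The promoter window of SMAD6 is shown because a pair of inhibitory SMADs was higher and this was the one member window with the palindromic SMAD-binding element GTCTAGAC. The window runs from 250 bases before to 50 bases after the start site in RefSeq (GRCh38.p14, plus strand, chr15:66701986-66702285), and the element is in capitals.
SMAD6: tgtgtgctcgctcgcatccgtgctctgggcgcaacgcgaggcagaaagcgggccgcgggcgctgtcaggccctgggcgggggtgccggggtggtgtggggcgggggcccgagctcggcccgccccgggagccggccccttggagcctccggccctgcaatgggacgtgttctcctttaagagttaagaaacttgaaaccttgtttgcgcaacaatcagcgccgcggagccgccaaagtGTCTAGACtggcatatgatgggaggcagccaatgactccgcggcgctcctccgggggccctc
The element is its own reverse complement, so both strands were searched at once, and it lay from -12 to -5 relative to the start site. It was in 0.202% of all 35116 windows and in 1 of the 84 windows of the 46 members with one. The letters GGCGCC, bound by SMAD1 and also their own reverse complement, were in 19.2% of all windows and in 21 of the 84 member windows. A match is a description of letters and does not show binding.

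Extracellular antagonists held both high and low members. FSTL1, a secreted follistatin-like glycoprotein that binds BMP4, was at 10.22 with miR-130b, against 9.33 with the empty vector, a difference of 0.90. FST, follistatin, which binds activins, was at 9.63 with miR-130b, against 8.92 with the empty vector, a difference of 0.72. FSTL3, a further activin binder, was at 11.13 with miR-130b and 11.05 with the empty vector. FST and FSTL1 were more than 1.5-fold higher, while FSTL3 differed by 0.076. The BMP antagonist GREM1 (gremlin) was lower, at 7.47 with miR-130b, against 8.31 with the empty vector, a difference of -0.84 below the filter. The BMP antagonists CHRD (chordin) and NOG (noggin), also below the filter, differed by 0.13 and 0.059. Of the 6 antagonists 5 were higher, with a median of 0.10, and the 3 that passed the filter had a median of 0.72.

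The ID genes, which encode helix-loop-helix proteins that block differentiation factors, did not share a direction. ID1 was at 11.90 with miR-130b, against 10.82 with the empty vector, which is 2.12-fold higher and above 99.0% of kept genes. ID3 was at 10.50 with miR-130b, against 10.04 with the empty vector, a difference of 0.46. ID2 was at 9.78 with miR-130b, against 10.60 with the empty vector, a difference of -0.82, and 2.76% of kept genes lay below it. ID1 and ID2 thus stood near opposite ends of the distribution. ID4, near background, was at 6.94 with miR-130b and 6.84 with the empty vector.

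**Figure D2:**
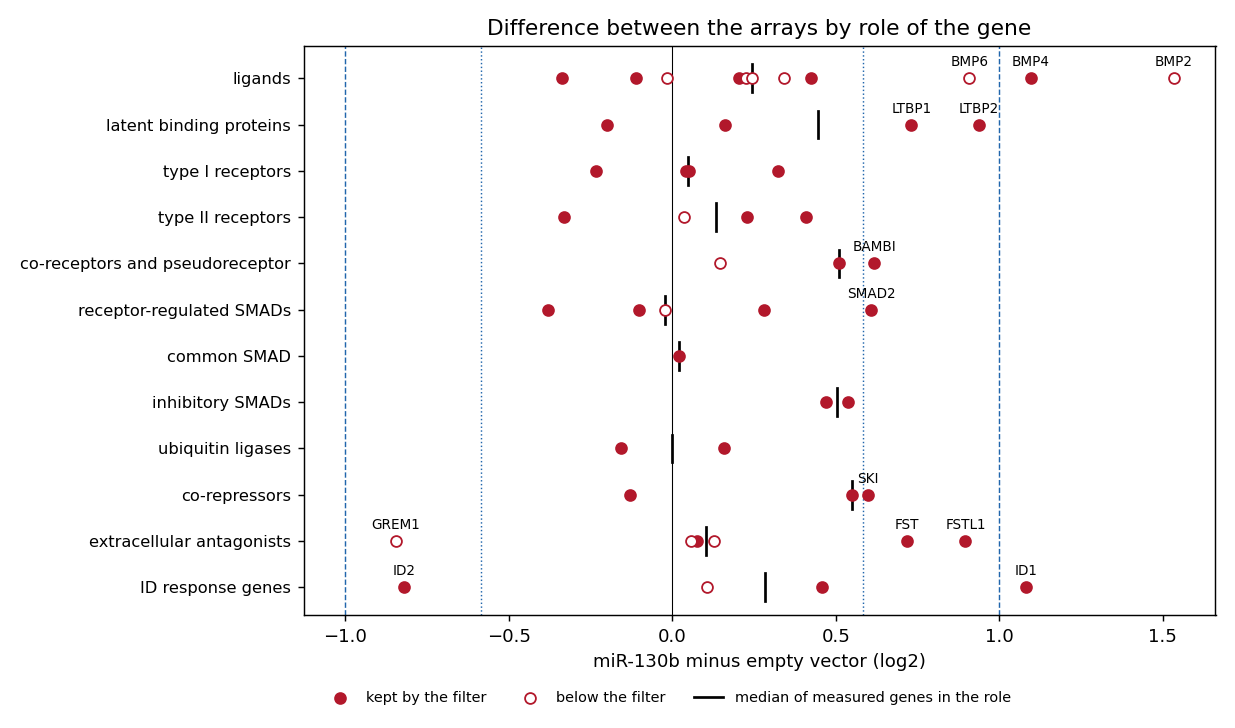
Difference, miR-130b minus empty vector (log2, x axis) for each measured member by role, with filled points for genes kept by the filter, open points for genes below it, a black bar for the median of each role, and dotted and dashed lines at 1.5-fold and 2-fold. The type I and type II receptors sit inside the 1.5-fold lines. Beyond the upper 1.5-fold line lie 3 ligands, 2 latent binding proteins, 2 antagonists, BAMBI, SMAD2, SKI and ID1. GREM1 and ID2 lie beyond the lower one.

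Across roles, the medians of all measured members ran from -0.021 for the receptor-regulated SMADs to 0.55 for the co-repressors. They were 0.51 for the co-receptors and the pseudoreceptor, 0.50 for the inhibitory SMADs, 0.45 for the latent binding proteins and 0.28 for the ID genes. The ligands had 0.24, the type II receptors 0.13, the antagonists 0.10, the type I receptors 0.047, SMAD4 0.022 and the ubiquitin ligases 0.0010. Both ends depend on the filter, since among kept members the receptor-regulated SMADs had 0.090 and the antagonists 0.72. Roles hold between 1 and 11 genes, so these medians rest on few values. The cumulative plot of differences sets the members beside all kept genes.

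**Figure D3:**
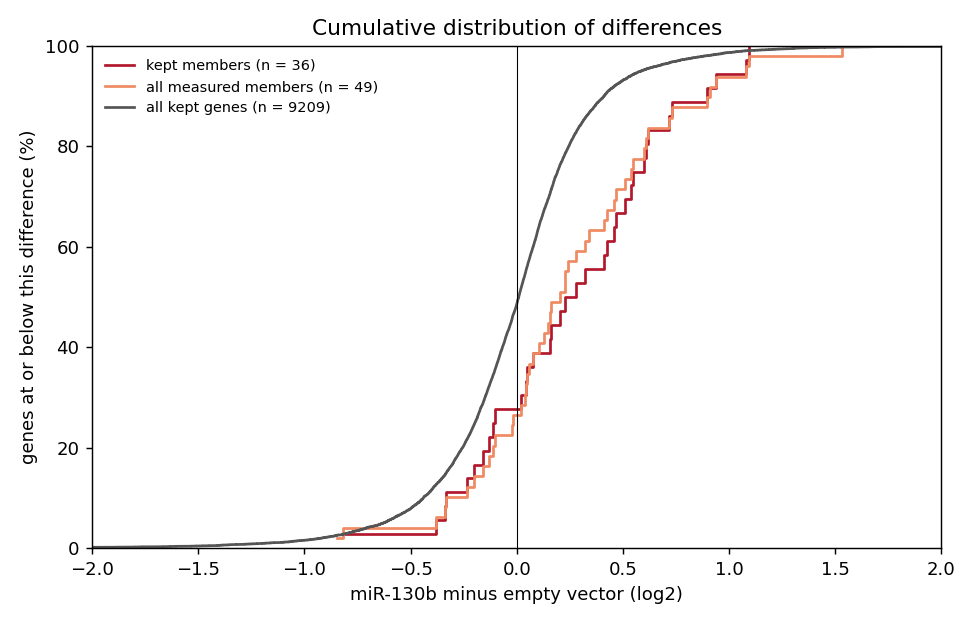
Share of genes (y axis, %) at or below a given difference, miR-130b minus empty vector (log2, x axis, cropped to the central range) for the 36 kept members (red), the 49 measured members (orange) and all 9209 kept genes (grey). Both member curves lie to the right of the grey curve over most of their range, with medians of 0.26 and 0.20 against 0.010. All measured genes without the filter, the like set for the orange curve, are not drawn and had a median of 0.053. The member curves meet the grey curve at the low end, where ID2 stands in both and GREM1 in the orange curve only.

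Members that may be targets of the AGUGCAA seed were listed from general knowledge, and the literature was not consulted: TGFBR1, TGFBR2, ACVR1, BMPR2, SMAD4 and SMAD5. Their median difference was 0.26, and 5 of the 6 were higher and ACVR1 lower. All 6 are among the 36 kept members, whose median was also 0.26. The match of these medians therefore does not compare the 6 with other members. None was 1.5-fold different in either direction, where 5.04% of kept genes were higher and 5.87% lower by that much, so this count is near the general share. BMP4 and ID1, with the highest differences among kept members, are not on that list. Seed matches in the members' mRNAs were not searched, so whether any member on or off the list is a target was not tested.

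Other genes of the pathway were taken from a list of 71 that holds none of the members and was chosen with earlier results of these data known. Of these 66 were measured and 31 passed the filter, and the median difference of those was 0.12, with 21 higher and 10 lower. At least 2-fold higher were 2 of the 31, against 1.32% of kept genes, and these 2 were also the only ones at least 1.5-fold higher, against 5.04%. None of the 31 was 1.5-fold lower, against 5.87%. HTRA1, a secreted serine protease known to dampen TGF-beta family signals, was at 11.53 with miR-130b, against 9.86 with the empty vector, 3.18-fold higher. PMEPA1, a membrane protein that TGF-beta induces and that sequesters SMAD2 and SMAD3, was at 13.11 with miR-130b, against 11.86 with the empty vector, 2.38-fold higher. Both exceed every kept member in difference.

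The remaining genes of that list that passed the filter differed by less than 1.5-fold. Of the fibrillins, matrix proteins that hold latent complexes, FBN1 was at 11.62 with miR-130b and 11.05 with the empty vector, and FBN2 was at 11.59 with miR-130b and 12.06 with the empty vector. The fibrillins thus differed in opposite directions, by 0.57 and -0.47. Among endosomal anchors that recruit SMADs, ZFYVE16 differed by 0.43 and ZFYVE9, the adaptor SARA, by -0.35. FKBP1A, which guards the type I receptors, differed by 0.20, and CD109, a TGF-beta co-receptor, by -0.059. LEMD3, an inner nuclear membrane protein that binds SMADs, differed by 0.31, the ubiquitin ligase NEDD4L by -0.40 and XIAP by -0.30. Of 21 other ligand genes measured, AMH at 0.12 and LEFTY2 at 0.11 were the 2 that passed the filter. INHBE, an activin subunit gene below the filter that was named with its values known, was at 7.12 with miR-130b and 7.95 with the empty vector.

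Genes known to respond to TGF-beta in many cell types had a median difference of 0.36 over the 15 of 19 that passed the filter, with 12 higher and 3 lower. SMAD7, SKIL and LTBP2 are members described above, and PMEPA1 is also on the other list, so these values are not independent. The 12 kept response genes that are not members had a median of 0.28, with 9 higher and 3 lower. Of these 12, 4 were at least 1.5-fold higher, against 5.04% of kept genes, and none was 1.5-fold lower, against 5.87%. The list was chosen with earlier results of these data known, and the part of that choice in these counts was not tested. THBS1, thrombospondin 1, which activates latent TGF-beta, was at 12.72 with miR-130b, against 11.46 with the empty vector, a difference of 1.26. Beside PMEPA1, the others past 1.5-fold, named after their values were seen, were the transcription factor genes JUNB, at 11.71 with miR-130b and 10.98 with the empty vector, and SNAI2, at 11.45 with miR-130b and 10.77 with the empty vector. SNAI1, a repressor of E-cadherin that was also named after its values were seen, lay below the filter at 9.01 with miR-130b, against 7.82 with the empty vector. CDKN1A, the cell cycle inhibitor p21, was lower, at 9.46 with miR-130b and 9.81 with the empty vector. TGFBI, a matrix protein named for its induction by TGF-beta, was at 12.97 with miR-130b and 13.06 with the empty vector.

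**Figure D4:**
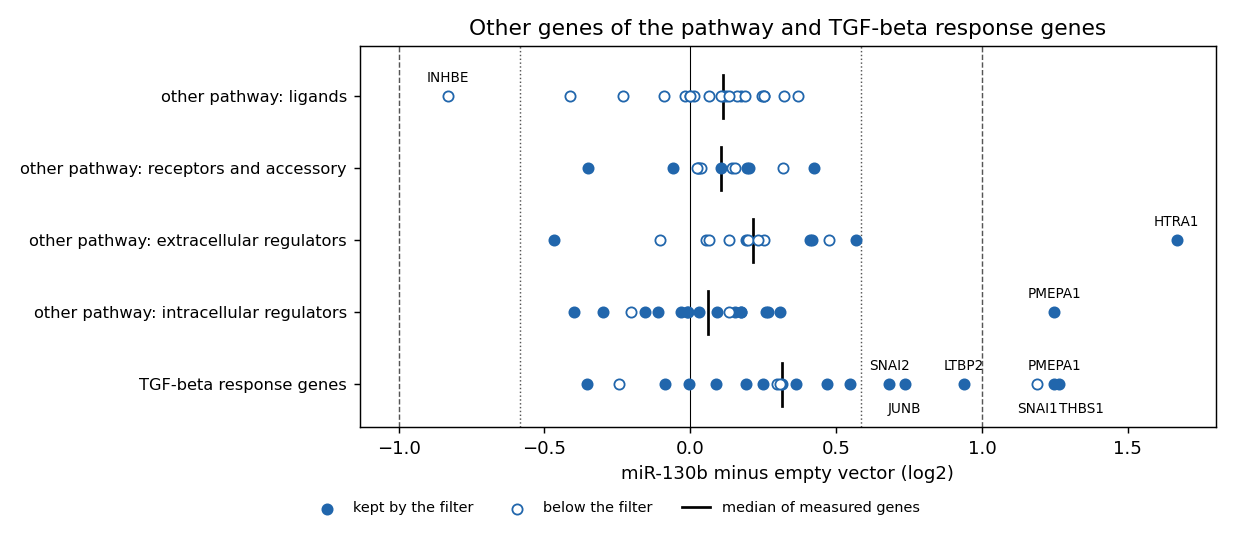
Difference, miR-130b minus empty vector (log2, x axis) for other genes of the pathway and for TGF-beta response genes, with filled points for genes kept by the filter, open points for genes below it, a black bar for each list's median, and dotted and dashed lines at 1.5-fold and 2-fold. HTRA1, PMEPA1 and THBS1 stand beyond 2-fold among kept genes, and most other genes lie inside the 1.5-fold lines.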

How the data were processed

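The authors deposited 1 log2 expression value per probe set and sample, 33297 in each, with medians of 7.77 in both groups. The labels' protocols give whole-transcript cDNA with biotin labelling for an Affymetrix array and an extraction text about excised tissue. The log2 unit was taken from the deposited values (1.95 to 14.2). For background correction and normalization the method is not given in the sources used here, and the nearly equal distributions remove any overall difference in precipitated RNA.

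Probe sets were named through the supplied platform annotation, 19460 with 1 gene symbol, 1754 with several (left out) and 12083 unnamed here. Current symbols came from Entrez identifiers (19429 matched), and probe sets were averaged per gene. With 1 array per group no test was run. Genes were counted at 2-fold and 1.5-fold. As alternatives, the filter was dropped or raised to the 75th percentile, and the rest were median centring, quantile normalization, cyclic loess (limma 3.58.1), the brightest probe set and the mean of the list. The counting code was run at 2-fold on simulated arrays with shifts set past that fold and noise taken from the SD between probe sets. This checks the code and not the results, and the 1.5-fold count was not simulated. Python 3.11.15 and R 4.3.3 were used. The members and lists were chosen with earlier results of these data known. The rule for named genes took every measured member, MIR130B, AGO2, and the 2 largest kept differences each way in each list of other pathway genes and in the response genes. Outside this rule, the single cell type markers, JUNB, SNAI1, SNAI2, INHBE, MIR130A and MIR301A were named after their values were seen. No coordinates are given for probe sets because the files name no genome build. The number of arrays limits the precision.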

Additional observations from a re-analysis of the deposited data

How the results depend on the processing

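All 49 measured members kept their direction under median centring, quantile normalization, cyclic loess and the brightest probe set per gene. The brightest probe set could change only the 2 members with several probe sets. Median centring took 0.010 from each difference, less than the smallest difference above 0, that of SMAD4 at 0.022, so it could change no direction. Some kept directions were very small, such as that of NOG at 0.0015 under cyclic loess. The median of the kept members lay between 0.20 and 0.28 over its alternatives, the mean of the list included, and that of all measured members between 0.18 and 0.22. Results changed mainly with the filter. With the filter at the 75th percentile 21 members were left. Kept members at least 1.5-fold different were then 5 higher and 0 lower (9 and 1 at the median filter), and 1 was at least 2-fold higher. The share of all genes past these folds at that filter was not computed, so these counts have no general share beside them. The median of the receptor-regulated SMADs was 0.28 at that filter. Without a filter, 2 members and 1 of the other pathway genes were at least 1.5-fold lower, against 4.65% of all measured genes. The median of the extracellular antagonists was then 0.10 and that of the ID genes was 0.28. These changes follow from the genes each filter leaves. Among single members SMAD2 was at 0.37 with the brightest probe set, because its probe sets disagree. No paired analysis was possible because each group had 1 array. Without detection p-values in the files, no probe could be marked as background.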

Other observations

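Of the genes of related microRNAs, MIR130A and MIR301A had values here, and those of MIR301B and MIR454 were not analysed here. The probe set of MIR130A read 5.40 in the miR-130b array and 5.55 in the empty-vector array, and that of MIR301A read 3.51 in the miR-130b array and 3.73 in the empty-vector array. Both lay below the median of the olfactory receptor genes on both arrays. A probe set for a microRNA gene need not measure the mature microRNA.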
